A study of Rattus norvegicus with 60 samples.

Results

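The genes described here are 9 that handle klotho signalling, vitamin D turnover and calcium transport in the renal tubule: Kl, Vdr, Cyp24a1, Cyp27b1, Calb1, Trpv5, S100g, Slc8a1 and Atp2b1. They were taken by gene name from a count table of 32545 genes, and each name matched 1 row. The table places Kl on chromosome 12, Vdr, Cyp27b1 and Atp2b1 on 7, Cyp24a1 on 3, Calb1 on 5, Trpv5 on 4, S100g on X and Slc8a1 on 6, on a build not given in the sources used here. RNA was sequenced from 2 kidney regions, outer medulla and cortex, of NOX4 rats, which are knockouts of NADPH oxidase 4 made on the Dahl salt-sensitive background, and of the unmodified Dahl salt-sensitive strain (SS, wild type). Rats of each strain were kept on a control diet (LS) or given 4.0% NaCl in the diet for 7 days (HS7) or for 21 days (HS21). The groups are therefore NOX4 LS, NOX4 HS7, NOX4 HS21, SS LS, SS HS7 and SS HS21 in each region, with 5 libraries per group and 60 in all. All rats carry the Dahl salt-sensitive background, which raises blood pressure on salt. The kind of NOX4 allele, the age of the rats, the salt content of the control diet and whether each library is a separate rat are not given in the sources used here, so a p-value measures the spread between these libraries.

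Klotho, the product of Kl, is the co-receptor through which the bone hormone FGF23 acts on the kidney, where it lowers phosphate reabsorption and the making of active vitamin D. Cyp27b1 encodes the hydroxylase that makes the active hormone calcitriol, Cyp24a1 the hydroxylase that breaks it down, and Vdr the nuclear receptor that it binds. In the distal convoluted and connecting tubules calcium enters the cell through the apical channel Trpv5, is carried by the cytosolic calbindins encoded by Calb1 and S100g, and leaves through the sodium-calcium exchanger Slc8a1 and the plasma membrane calcium pump Atp2b1.

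Promoter sequence was at hand for 6 of the 9 genes (Kl, Vdr, Cyp27b1, Trpv5, Slc8a1 and Atp2b1). The 250 bases before the annotated start are shown for the 4 of these genes that were called higher in NOX4 cortex, with sequence from RefSeq on the GRCr8 build. Capitals mark letters that matched a searched motif on either strand. The half-site that the vitamin D receptor is known to bind was searched as AGGTCA. Other spellings of that half-site searched beside it were AGTTCA first and, as the last of the vitamin D half-sites, GGTTCA. Motifs of general promoters were also searched, namely the TATA box with the letters TATAAA, the CCAAT box by its own letters, and the GC box, which is spelled GGGCGG. No motif overlapped another in the sequences shown. The regions are chr12:5325753-5326002 (plus strand) for Kl, chr7:130916758-130917007 (minus strand) for Vdr, chr4:71529383-71529632 (minus strand) for Trpv5 and chr6:19023309-19023558 (plus strand) for Slc8a1. The deposited table has Slc8a1 on the minus strand of its own build, so whether this start is that of the counted gene was not checked.
Kl: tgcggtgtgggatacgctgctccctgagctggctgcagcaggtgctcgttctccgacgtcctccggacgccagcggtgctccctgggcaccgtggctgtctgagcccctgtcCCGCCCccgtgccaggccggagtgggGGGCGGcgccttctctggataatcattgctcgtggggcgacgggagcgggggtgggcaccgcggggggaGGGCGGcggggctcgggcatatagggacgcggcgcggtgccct
Vdr: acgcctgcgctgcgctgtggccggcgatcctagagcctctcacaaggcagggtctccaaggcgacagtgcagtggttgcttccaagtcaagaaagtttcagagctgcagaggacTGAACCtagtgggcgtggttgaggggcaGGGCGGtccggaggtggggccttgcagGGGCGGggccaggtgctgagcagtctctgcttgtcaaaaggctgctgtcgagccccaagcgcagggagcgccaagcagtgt
Trpv5: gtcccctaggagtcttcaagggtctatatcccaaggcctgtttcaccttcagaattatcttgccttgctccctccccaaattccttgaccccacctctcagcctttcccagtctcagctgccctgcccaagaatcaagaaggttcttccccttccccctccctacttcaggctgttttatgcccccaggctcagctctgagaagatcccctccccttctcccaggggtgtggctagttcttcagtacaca
Slc8a1: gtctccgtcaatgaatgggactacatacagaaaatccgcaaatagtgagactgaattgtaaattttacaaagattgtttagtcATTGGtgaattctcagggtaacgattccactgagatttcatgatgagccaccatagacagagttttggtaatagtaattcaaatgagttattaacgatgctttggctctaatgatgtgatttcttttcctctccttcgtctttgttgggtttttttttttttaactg

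These promoters differed in composition and in the letters they held. GC content was 73.2% for Kl, 63.6% for Vdr, 54.4% for Trpv5 and 35.2% for Slc8a1. Kl held the GC box at 3 places and Vdr at 2. Of the half-sites, Vdr held GGTTCA, read on the opposite strand 136 to 131 bases before the start, and the other 3 sequences held none. Cyp27b1, not printed here, held GGTTCA on its own strand 41 to 36 bases before the start. Trpv5 matched no searched motif, and Slc8a1, a gene known to use several tissue-specific promoters, held the CCAAT box. Among all 33469 promoters of this length in the same table, 31.3% held at least 1 of the half-sites, 30.5% the GC box, 34.0% the CCAAT box and 12.9% the TATA box. A match of letters is not a binding site, and nothing here bears on which of these letters are used.

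Library totals ran from 11.5 to 29.6 M counts. Levels are given in CPM, counts per 1 M of a library's total scaled by its TMM factor; a log2 fold change carries its standard error, and a gene is called at an adjusted p under 0.05 from edgeR's quasi-likelihood test with Benjamini-Hochberg adjustment over all genes tested. Nox4 itself ran from 54.7 to 77.7 CPM (median 66.4) in NOX4 cortex and from 251 to 530.5 CPM (median 315) in SS cortex, with no overlap. In outer medulla it ran from 1.83 to 15.1 CPM (median 4.60) in NOX4 and from 6.35 to 111 CPM (median 11.1) in SS, and the strains overlapped. Libraries of 3 kinds stood apart, and a call of a member that is gained or lost without them is given both ways. Values of other pathway genes and of cell markers come from the fit with all libraries only. Replicates 3 and 4 of NOX4 HS7 stood apart in both regions, and their cortex libraries, numbered 62 and 63, lie outside the run of 41 to 49 that the other 3 of the group carry. In outer medulla, NOX4 HS7 replicate 2 and SS HS7 replicate 3 were rich in markers of the cortical proximal tubule (segments 1 and 2), with mean log2 CPM scores of 7.48 and 7.12. Low complexity marked 11 SS libraries at LS and HS7 (5 in cortex, 6 in outer medulla): 10 or more of the genes whose median in that tissue was 2 to 5 CPM were at 0 there after thinning. Library numbers run from SS to NOX4 groups and, within each strain, from LS to HS7 to HS21, apart from libraries 62 and 63. A batch that followed them cannot be told apart from strain or from diet.

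All 9 genes were lower in outer medulla than in cortex. The fold change was largest for Calb1, the larger calbindin, and the channel Trpv5, and smallest for the calcium pump Atp2b1. On 1 scale over all 60 libraries, Calb1 ran from 0.533 to 94.2 CPM (median 1.85) in outer medulla and from 158 to 903 CPM (median 443) in cortex. Trpv5 ran from 0 to 4.81 CPM (median 0.142) in outer medulla and from 16.8 to 59.1 CPM (median 33.7) in cortex. The 2 regions did not overlap in either gene, and 7 outer medulla libraries had no Trpv5 count. Their log2 fold changes were -6.92 ± 0.37 for Calb1 (adjusted p = 2.3e-23) and -6.33 ± 0.32 for Trpv5 (adjusted p = 1.1e-24), though a fit to counts near 0 depends on the prior count and its size is not exact.

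**Figure D1:**
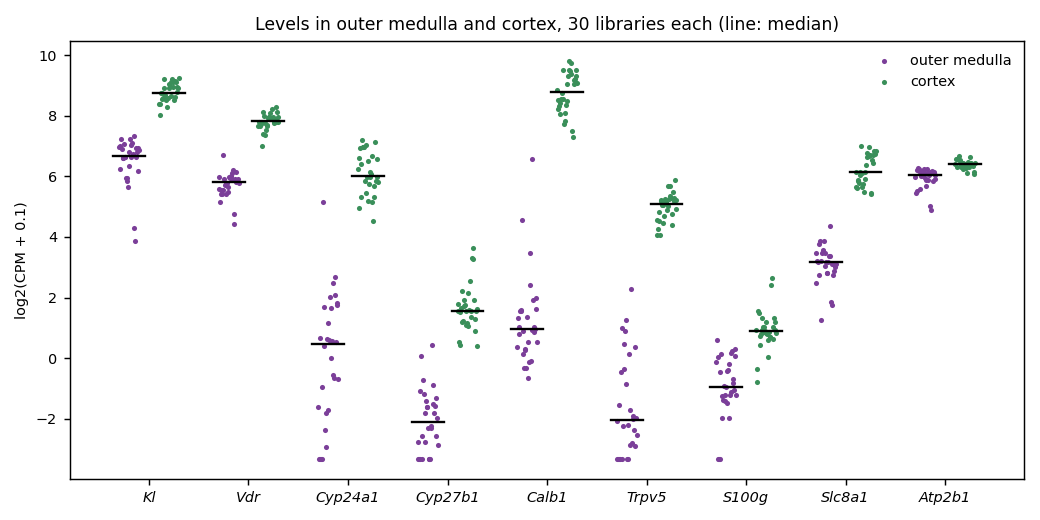
Levels of the 9 genes in each outer medulla and cortex library, as log2(CPM + 0.1) on 1 scale over all 60 libraries, with a line at each median of 30. Kl, Vdr, Calb1, Trpv5 and Slc8a1 did not overlap between regions, while Atp2b1 medians were 66.5 and 84.3 CPM.

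Klotho and the vitamin D genes followed the same direction. Kl had a median of 103 CPM (14.3 to 162) in outer medulla and 435 CPM (263 to 607) in cortex, a log2 fold change of -2.19 ± 0.12 (adjusted p = 2.0e-22). For Vdr the medians were 56.0 CPM in outer medulla and 226 CPM in cortex (log2 fold change -2.06 ± 0.086, adjusted p = 7.6e-28). Neither gene overlapped between regions. Cyp24a1 fell to a median of 1.28 CPM in outer medulla, against 65.2 CPM in cortex, and Cyp27b1 to 0.131 CPM against 2.84 CPM. In each of these enzymes 1 outer medulla library reached the cortex range; for Cyp24a1 it was the marker-rich SS HS7 replicate 3, at 35.6 CPM.

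The extrusion genes and the smaller calbindin were lower as well. Slc8a1 had medians of 8.88 CPM in outer medulla and 70.7 CPM in cortex (log2 fold change -3.08 ± 0.14, adjusted p = 4.8e-27), with no overlap. S100g was scarce in both regions, with medians of 0.423 CPM in outer medulla and 1.74 CPM in cortex, and 13 outer medulla libraries lay inside the cortex range. Atp2b1 overlapped in 14 of 30 outer medulla libraries, with a log2 fold change of -0.43 ± 0.064 (adjusted p = 5.3e-08). Of 16326 genes tested, 71.6% were called between the regions, 34.0% as lower in outer medulla. Where a bulk sample holds less of a transcript, fewer cells of a type and less RNA per cell cannot be told apart.

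Per length, in the authors' deposited FPKM, the order of the genes also differed between regions. Kl led in outer medulla at 26.1 ± 9.31 FPKM (SD, n = 30), ahead of Atp2b1 at 14.4 ± 2.88 and Vdr at 12.3 ± 3.33 FPKM, and these last 2 did not differ beyond their spread. Calb1 (3.49 ± 9.87 FPKM), Slc8a1 (3.04 ± 1.21), S100g (1.32 ± 0.918), Cyp24a1 (0.851 ± 1.99), Trpv5 (0.121 ± 0.208) and Cyp27b1 (0.0890 ± 0.116) followed. The Calb1 mean was set by the marker-rich NOX4 HS7 replicate 2, at 54.0 FPKM: by medians Slc8a1 (2.89 FPKM) stood above Calb1 (1.08 FPKM). In cortex Calb1 led at 275 ± 120.1 FPKM, before Kl at 115 ± 23.7 and Vdr at 50.3 ± 8.57 FPKM. Slc8a1 (25.8 ± 8.76 FPKM), Cyp24a1 (23.5 ± 11.0) and Atp2b1 (19.0 ± 1.85) lay within each other's spread. Trpv5 (6.76 ± 2.08 FPKM) and S100g (4.84 ± 2.71) also did, and Cyp27b1 was lowest at 1.45 ± 1.04 FPKM.

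In cortex, 5 of the 9 genes were higher in NOX4 than in SS when the 3 diets were averaged: Kl, Vdr, Calb1, Trpv5 and Slc8a1. None was called lower. Of the 15179 genes tested, 31.7% were called in this comparison, 16.7% as higher and 15.0% as lower. The median log2 fold change of the 9 was 0.35, against 0.0019 for all genes tested. The plot of fold changes by diet gives each gene in turn.

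**Figure D2:**
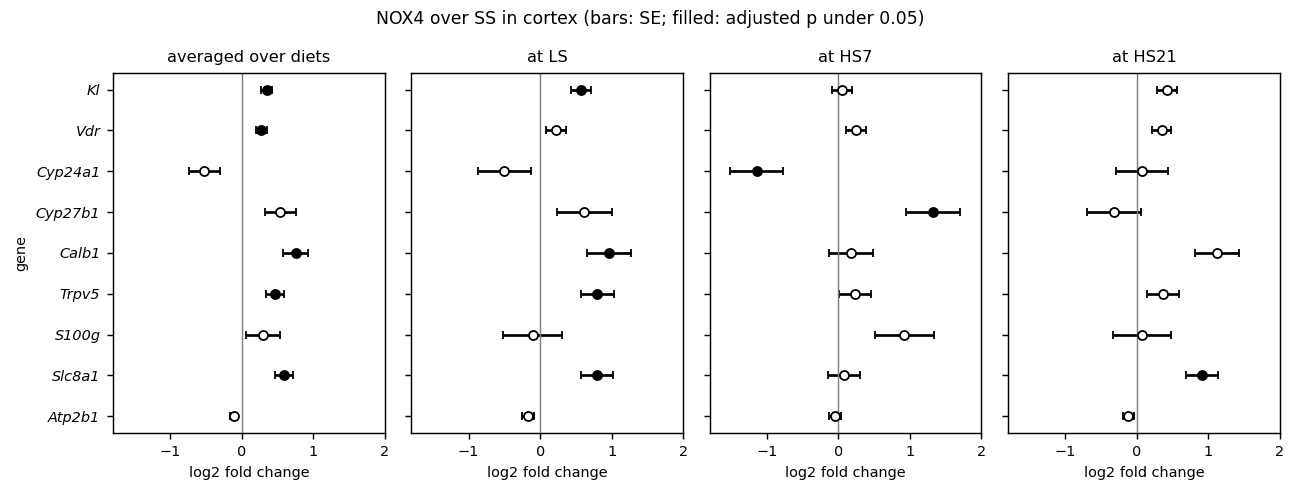
Log2 fold change of NOX4 over SS in cortex for each gene, averaged over diets and at each diet, with bars of 1 standard error and filled points at an adjusted p under 0.05. Kl, Vdr, Calb1, Trpv5 and Slc8a1 are filled in the average, Kl, Calb1, Trpv5 and Slc8a1 at LS, Cyp24a1 and Cyp27b1 at HS7, and Slc8a1 alone at HS21.

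Kl ran from 330.0 to 535 CPM (median 452) over the 15 NOX4 cortex libraries and from 234 to 522 CPM (median 337) over the 15 SS libraries. Its log2 fold change was 0.35 ± 0.081 (adjusted p = 0.0015). For Vdr the ranges were 194 to 273 CPM (median 219) in NOX4 and 114 to 245 CPM (median 183) in SS, a log2 fold change of 0.27 ± 0.079 (adjusted p = 0.0097). Both genes overlapped between strains, and the steps were modest.

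Calb1, Slc8a1 and Trpv5 passed among the genes of calcium transport. Calb1 had 141 to 793 CPM (median 557) in NOX4 cortex and 186 to 652 CPM (median 304) in SS cortex (log2 fold change 0.75 ± 0.18, adjusted p = 0.0019). Slc8a1 had 38.1 to 109 CPM (median 90.3) in NOX4 and 39.7 to 114 CPM (median 52.5) in SS (log2 fold change 0.59 ± 0.13, adjusted p = 0.00075). Trpv5 had 18.6 to 52.1 CPM (median 33.8) in NOX4 and 14.9 to 33.6 CPM (median 24.9) in SS (log2 fold change 0.47 ± 0.13, adjusted p = 0.0063). In Calb1 and Slc8a1 the lowest NOX4 values were those of HS7 replicates 3 and 4, which lay below all 15 SS libraries. The other 4 members, the calcium genes S100g and Atp2b1 among them, did not pass: Cyp24a1 at -0.52 ± 0.21 (adjusted p = 0.060), Cyp27b1 at 0.54 ± 0.22 (adjusted p = 0.059), S100g at 0.30 ± 0.24 (adjusted p = 0.36) and Atp2b1 at -0.11 ± 0.048 (adjusted p = 0.071). Each of the 5 calls held in all 30 fits that left out 1 library, and DESeq2 called 7 of the 9. For alternative fits, here and below, the share of all genes called is not reported. Without the low-complexity libraries Cyp24a1 was called as well (-0.59, adjusted p = 0.038).

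**Figure D3:**
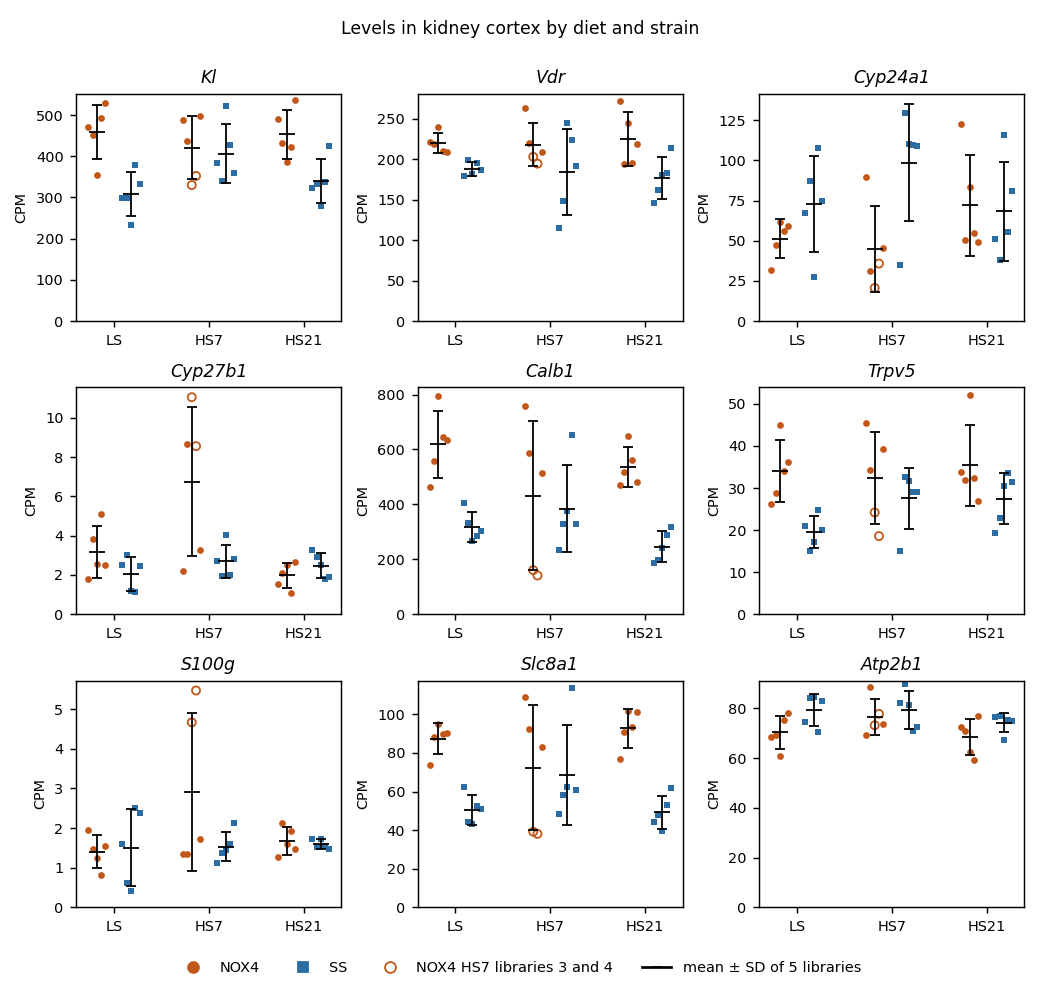
CPM of each of the 9 genes in the 30 cortex libraries by diet, with NOX4 circles left of SS squares and bars for the mean ± SD of 5. Open circles are NOX4 HS7 libraries 3 and 4, which lie low in Calb1 (160.3 and 141 CPM) and Slc8a1 and high in S100g.

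At LS the strains did not overlap in Calb1, Slc8a1 and Trpv5. Calb1 had 465, 557, 793, 645 and 633 CPM in NOX4 LS cortex, against 407, 330.4, 265, 286 and 304 CPM in SS LS cortex. Slc8a1 had 74.0, 88.4, 94.9, 89.6 and 90.3 CPM in NOX4, against 62.5, 44.4, 43.0, 52.5 and 50.8 CPM in SS. Trpv5 had 26.2, 28.9, 45.1, 34.0 and 36.2 CPM in NOX4, against 20.9, 14.9, 17.1, 24.9 and 20.1 CPM in SS. In all 3 genes every NOX4 library lay above every SS library. Overlap was read only for the members and Nox4, here and in the other comparisons, so its share over all genes is not known. The log2 fold changes were 0.96 ± 0.31 for Calb1 (adjusted p = 0.026), 0.79 ± 0.22 for Slc8a1 (adjusted p = 0.012) and 0.80 ± 0.23 for Trpv5 (adjusted p = 0.011).

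Klotho also rose at LS. Kl had 472, 452, 355, 492 and 529 CPM in NOX4 LS cortex, against 299, 299, 234, 379.8 and 332 CPM in SS LS cortex, and 4 of 5 NOX4 libraries lay above all SS libraries (log2 fold change 0.57 ± 0.14, adjusted p = 0.0042). Vdr did not overlap either, at 209 to 239.6 CPM in NOX4 and 179 to 199 CPM in SS, but did not pass the test (0.22 ± 0.14, adjusted p = 0.27), except with only the 2 compared groups in the fit (0.21, adjusted p = 0.041). At this diet 22.0% of all genes were called, and 4 of the 9. Without the low-complexity libraries, which include SS LS replicates 2, 3 and 4, the values were 0.54 for Kl (adjusted p = 0.068), 0.79 for Calb1 (adjusted p = 0.23), 0.73 for Trpv5 (adjusted p = 0.10) and 0.62 for Slc8a1 (adjusted p = 0.15), and none was called. The Calb1 call was also lost without SS LS replicate 3, SS LS replicate 4 or NOX4 LS replicate 3, at adjusted p of 0.053 to 0.066.

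At HS7 the vitamin D enzymes were called, and Kl, Vdr and the 5 calcium genes were not. Cyp27b1, which makes the active hormone, had 2.20, 8.65, 11.0, 8.56 and 3.29 CPM in NOX4 HS7 cortex, against 2.69, 1.93, 4.03, 1.98 and 2.82 CPM in SS HS7 cortex. Its log2 fold change was 1.32 ± 0.38 (adjusted p = 0.017), from counts of 47 to 206 in NOX4 and 24 to 73 in SS. Cyp24a1, which breaks the hormone down, had 89.9, 31.4, 20.6, 35.8 and 45.6 CPM in NOX4, against 35.0, 129.5, 110.1, 109.5 and 109 CPM in SS (log2 fold change -1.14 ± 0.37, adjusted p = 0.033). Each enzyme overlapped between strains: NOX4 replicates 1 and 5 had Cyp27b1 levels within the SS range, and SS replicate 1 had a Cyp24a1 level among the NOX4 libraries. At this diet 17.4% of all genes were called, and 2 of the 9.

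Both enzyme calls were lost without the libraries that stood apart. Without NOX4 HS7 replicates 3 and 4 the log2 fold change was 0.80 for Cyp27b1 (adjusted p = 0.23) and -0.83 for Cyp24a1 (adjusted p = 0.23). Without the low-complexity libraries Cyp27b1 was 1.19 (adjusted p = 0.055). The mean log2 ratio of Cyp24a1 to Cyp27b1 counts was 2.79 ± 1.77 (SD, n = 5) in NOX4 HS7 cortex and 5.10 ± 0.93 in SS HS7 cortex. Without the 2 libraries it was 3.66 ± 1.75 (n = 3) in NOX4 HS7. At LS the ratio was 4.07 ± 0.52 in NOX4 and 5.10 ± 0.83 in SS, and at HS21 it was 5.15 ± 0.83 in NOX4 and 4.70 ± 0.83 in SS. With only the 2 compared groups in the fit, neither enzyme was called (adjusted p = 0.12 for Cyp24a1 and 0.11 for Cyp27b1). The Cyp24a1 call was lost in 7 of 30 fits that left out 1 library (adjusted p up to 0.098) and the Cyp27b1 call in 2 (up to 0.069). In each of these fits the library left out belonged to 1 of the 2 compared groups of 5.

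Replicates 3 and 4 of NOX4 HS7 also lay apart in the calcium genes at that diet. Calb1 had 756, 586, 160.3, 141 and 516 CPM in NOX4 HS7 cortex, against 235, 329.7, 376, 652 and 329 CPM in SS HS7 cortex (log2 fold change 0.17 ± 0.31, adjusted p = 0.75). Slc8a1 had 109, 92.6, 39.2, 38.1 and 82.9 CPM in NOX4, against 48.4, 58.0, 62.3, 114 and 60.8 CPM in SS (0.079 ± 0.22, adjusted p = 0.84). In both genes the 3 other NOX4 libraries lay above all SS libraries except replicate 4. S100g, the smaller calbindin, went the other way in the same 2 libraries: 1.35, 1.35, 4.67, 5.47 and 1.73 CPM in NOX4, against 1.12, 1.37, 1.44, 1.60 and 2.11 CPM in SS (0.92 ± 0.41, adjusted p = 0.12). Without the 2 libraries the differences at HS7 were 0.69 for Calb1 (adjusted p = 0.056), 0.47 for Slc8a1 (adjusted p = 0.11) and -0.043 for S100g (adjusted p = 0.97), none of them called. The summed level of the 3 red blood cell markers was 7.99 and 14.1 CPM in these 2 cortex libraries and 105 to 408 CPM in SS cortex. The part of this in the result was not tested.

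At HS21 Slc8a1 was the 1 member called. Slc8a1 had 77.0, 90.9, 102, 93.4 and 101 CPM in NOX4 HS21 cortex, against 44.4, 47.6, 39.7, 53.0 and 62.0 CPM in SS HS21 cortex (log2 fold change 0.91 ± 0.22, adjusted p = 0.037). Calb1 had 469.7, 518, 649, 563 and 482 CPM in NOX4, against 186, 198, 239, 289 and 317 CPM in SS (1.12 ± 0.31, adjusted p = 0.073). Neither gene overlapped between strains. Trpv5 did overlap, at 26.9 to 52.1 CPM in NOX4 and 19.2 to 33.6 CPM in SS (0.37 ± 0.22, adjusted p = 0.60). Calb1 was called without NOX4 HS7 replicates 3 and 4, which enter through the shared estimate of the spread (1.12, adjusted p = 0.0033), without the low-complexity libraries (adjusted p = 0.045), by DESeq2 (adjusted p = 0.025) and with only the 2 compared groups in the fit (adjusted p = 0.0022). That last fit also called Kl (0.42, adjusted p = 0.041). The Slc8a1 call was lost in 9 of 30 fits that left out 1 library, at adjusted p up to 0.14. In all 9 the library left out belonged to 1 of the 2 compared groups of 5, so the call was fragile. Only 1.00% of all genes were called at this diet, and 1 of the 9.

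Markers of several cell types, the segments that hold these genes among them, moved with strain in cortex. Of the 6 distal convoluted tubule markers, 5 were tested and 4 were higher in NOX4, among them Slc12a3, the thiazide-sensitive cotransporter (0.71 ± 0.11, adjusted p = 2.8e-05). Their summed level was 871 to 1391 CPM (median 1156) in NOX4 cortex and 474 to 1118 CPM (median 674) in SS cortex; Pvalb, also on that list, had no count in 29 of 30 libraries. Of 8 connecting tubule and principal cell markers, 6 were higher, with summed levels of 728 to 1426 CPM (median 1078) in NOX4 and 501 to 1002 CPM (median 689) in SS. Of the 6 tested of 7 markers of proximal tubule segment 3, a segment of the outer stripe, 5 were lower in NOX4, with summed levels of 615 to 1600.2 CPM (median 864) in NOX4 and 777 to 4012 CPM (median 1877) in SS. Markers of intercalated cells (6 of 6 higher; median sums 661 CPM in NOX4 and 433 CPM in SS), podocytes (5 of 5; 539 and 412 CPM) and proximal tubule segments 1 and 2 (5 of 6; 8482 and 6857 CPM) were higher too.

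With the distal convoluted tubule score as a covariate, the averaged differences were 0.17 for Kl (adjusted p = 0.53), 0.038 for Calb1 (adjusted p = 0.96), 0.093 for Slc8a1 (adjusted p = 0.84), -0.020 for Trpv5 (adjusted p = 0.97) and -0.078 for Vdr (adjusted p = 0.75). None of the 5 was then called, and Trpv5 and Vdr changed sign. With the segment 3 score as the covariate, the values were 0.19 for Kl, 0.21 for Calb1, 0.26 for Slc8a1, 0.092 for Trpv5 and -0.054 for Vdr, again with none called. Cyp24a1, which these scores did not shrink, was -1.38 (adjusted p = 0.048) with the distal score and -1.19 (adjusted p = 0.0038) with the segment 3 score. The scores themselves differed between strains, so a covariate takes up strain as well as makeup, and these cannot be told apart.

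Calb1, Slc8a1 and Trpv5 varied together from library to library. Calb1 and Slc8a1 had a Pearson r of 0.94 and a Spearman rho of 0.94 over the 30 cortex libraries (log2(CPM + 1); permutation p = 1e-05 for each, the smallest that 100000 resamples can give; adjusted p = 0.00018 over 36 pairs of members). The relation was 0.96 within the 15 NOX4 libraries and 0.86 within the 15 SS libraries, and 0.94 without the 2 libraries farthest from the median of Calb1. With each group centred on its mean and NOX4 HS7 replicates 3 and 4 left out, r was 0.86. Calb1 and Trpv5 were looser, at r of 0.70 and rho of 0.73 (permutation p = 2e-05 and 1e-05, adjusted p = 0.00024 and 0.00018), with r of 0.81 in NOX4 and 0.33 in SS. Calb1 and S100g had r of -0.42 and rho of -0.31 (permutation p = 0.019 and 0.097, adjusted p = 0.052 and 0.20), and r was -0.019 without replicates 3 and 4, so that relation rested on those libraries. Atp2b1 ran the other way, with r of -0.51 and rho of -0.37 against Trpv5 (permutation p = 0.0040 and 0.042, adjusted p = 0.013 and 0.11; r of -0.43 without the 2 farthest libraries), r of -0.42 against Slc8a1 (adjusted p = 0.053) and r of -0.39 against Calb1 (adjusted p = 0.072). With each group centred on its mean, r of Atp2b1 was -0.35 against Trpv5, -0.19 against Slc8a1 and -0.20 against Calb1. With NOX4 HS7 replicates 3 and 4 also left out, these were -0.42, -0.33 and -0.41. Calb1, Slc8a1 and Trpv5 were not alone in varying together. Pearson r was 0.73 for Kl with Slc8a1, 0.61 for Kl with Calb1, 0.62 for Vdr with Calb1 and 0.63 for Vdr with Trpv5 (adjusted permutation p of 0.00036 to 0.002). Centred by group and without NOX4 HS7 replicates 3 and 4, r was 0.29, 0.081, 0.62 and 0.59 in the same order. Permutations ran over all 30 libraries regardless of group, so their p-values include differences between strains and diets. The genes of a library share its depth, scaling and tissue makeup.

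**Figure D4:**
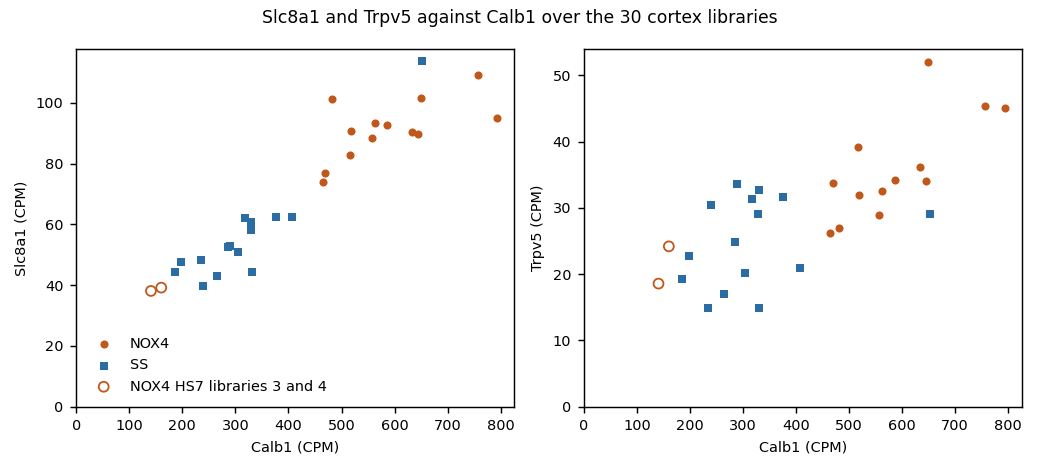
CPM of Slc8a1 and of Trpv5 against CPM of Calb1 in each of the 30 cortex libraries, NOX4 as circles and SS as squares. Slc8a1 follows Calb1 in both strains (r of 0.96 and 0.86), and NOX4 HS7 libraries 3 and 4 (open circles) lie at the low end of the same trend.

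By the same measure, log2 CPM over the 30 cortex libraries, other genes followed each member. Slc37a4, the glucose-6-phosphate transporter, was closest to Kl (r of 0.91), then Ak3 and Car14 (0.89 each). After Slc8a1, the closest to Calb1 were AABR07026778.1 (0.85) and Fxyd2, a sodium pump subunit (0.84). Beside Calb1 and AABR07026778.1 (0.84), the closest to Slc8a1 was S100a1 (0.84). Trpv5 was closest to Sat1 (0.84), Igfbp2 (0.79) and Mboat1 (0.79), and Vdr to Mroh1 (0.84), Klk1c9 (0.84) and the potassium channel Kcnq1 (0.84). Likeness was weaker for the enzymes: Wtap (0.71), Rnf183 (0.67) and Abhd17b (0.67) for Cyp24a1, and Acss1 (0.75), Lpcat3 (0.75) and Acmsd (0.73) for Cyp27b1. For S100g the closest were Fubp1 (0.79), Gpt2 (0.78) and Trmt5 (0.77), and for Atp2b1 Cltc (0.83) and Papola (0.82).

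None of the 9 genes was called for salt in cortex. In NOX4, 0 members were called at HS7 and 0 at HS21, where 0% of all genes were called at either time; 2 members at HS7 and 0 at HS21 had an unadjusted p under 0.05. In SS, 0 members were called at HS7, where 2.25% of all genes were called, and 0 at HS21, where 16.5% were; 2 and 1 members had an unadjusted p under 0.05. DESeq2 also called 0 of these. With the segment 3 score as a covariate, Vdr was lower in SS at HS7 (-0.44, adjusted p = 0.021) and at HS21 (-0.45, adjusted p = 0.0029). That score itself differed with diet in SS cortex, at 6.80 ± 0.25 (mean ± SD) at LS, 5.69 ± 1.05 at HS7 and 5.72 ± 0.64 at HS21. The covariate thus takes up diet as well as makeup, and these cannot be told apart. Trpv5 came to 14.9, 32.7, 31.7, 29.1 and 29.1 CPM in SS HS7 and to 19.2, 22.8, 30.5, 33.6 and 31.4 CPM in SS HS21, against 20.9, 14.9, 17.1, 24.9 and 20.1 CPM in SS LS. Its log2 fold change was 0.49 ± 0.23 at HS7 (adjusted p = 0.23) and 0.49 ± 0.23 at HS21 (adjusted p = 0.13), and the diets overlapped; the authors' deposited table called the change at HS21 (0.48, adjusted p = 0.043). Kl in SS was 0.40 ± 0.14 at HS7 (adjusted p = 0.11), with 383, 340.3, 522, 427 and 359 CPM.

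Whether the strains answered salt differently was tested as an interaction. In cortex 0 of the 9 were called at HS7, where 0.0132% of all genes were, and 0 at HS21, where 1.08% were; at HS7 Kl (-0.53 ± 0.20, adjusted p = 0.26) and Slc8a1 (-0.71 ± 0.31, adjusted p = 0.33) had an unadjusted p under 0.05. In outer medulla 0 were called at HS7 and at HS21, against 0% and 0.0253% of all genes; Vdr (-0.76 ± 0.34, adjusted p = 0.45) and Cyp24a1 (-4.15 ± 1.78, adjusted p = 0.44) had an unadjusted p under 0.05 at HS7. For both genes SS HS7 replicate 3, marker-rich and of low complexity, lay far above the other 4 of its group. For Cyp24a1 it had 39.2 CPM, against 0 to 3.49 CPM. DESeq2 called 0 of the interactions too. That a gene passed in the strain comparison at LS and not at HS7 is therefore not shown to be a difference between diets.

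In outer medulla none of the 8 genes tested was called between strains. Cyp27b1 had too few counts (0 to 24 per library) to be tested there. With the diets averaged, 30.4% of all genes were called and 0 members; at LS, HS7 and HS21 the shares were 14.8%, 9.61% and 1.63%, again with 0 members. The members with an unadjusted p under 0.05 were 0 in the average, 0 at LS, 0 at HS7 and 1 at HS21. DESeq2 called 0. With only the 2 compared groups in the fit 3 were called: Vdr at LS (0.41, adjusted p = 0.042), Kl at HS21 (0.80, adjusted p = 0.0092) and Slc8a1 at HS21 (-0.56, adjusted p = 0.021). Salt gave 0 calls as well, where 2.37% (HS7) and 9.86% (HS21) of all genes were called in SS and 0% in NOX4. In SS 1 member at HS7 and 2 at HS21 had an unadjusted p under 0.05, in NOX4 1 and 0, and DESeq2 called 2, Cyp24a1 at HS7 and Trpv5 at HS21, both in SS.

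Klotho in outer medulla was called or not depending on the libraries that stood apart and on the groups in the fit. Kl had 137, 124, 81.4, 138 and 129.9 CPM in NOX4 HS21, against 70.3, 70.3, 66.0, 55.5 and 90.3 CPM in SS HS21. At HS7 it had 119.8, 179.9, 21.6, 15.9 and 113 CPM in NOX4, against 115, 113, 149, 110.4 and 111 CPM in SS. At LS it had 126, 168, 112, 146 and 154 CPM in NOX4, against 143, 148, 89.5, 174 and 136 CPM in SS. All NOX4 HS21 libraries but replicate 3 lay above all SS HS21 libraries, and NOX4 HS7 replicates 3 and 4 lay far below every other library. The strain difference was 0.79 ± 0.38 at HS21 (adjusted p = 0.27) and 0.14 ± 0.22 averaged over diets (adjusted p = 0.66). Without those 2 libraries it was 0.79 at HS21 (adjusted p = 0.015) and 0.35 averaged (adjusted p = 0.014). The change of SS HS21 against SS LS, -0.97 ± 0.38 (adjusted p = 0.10), was -0.97 without them (adjusted p = 0.00068). In both HS21 comparisons the 2 libraries are in neither group and enter through the shared estimate of the spread. With only the compared groups in the fit, the strain difference at HS21 was 0.80 (adjusted p = 0.0092). The SS change was then -0.96 (adjusted p = 0.0049).

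**Figure D5:**
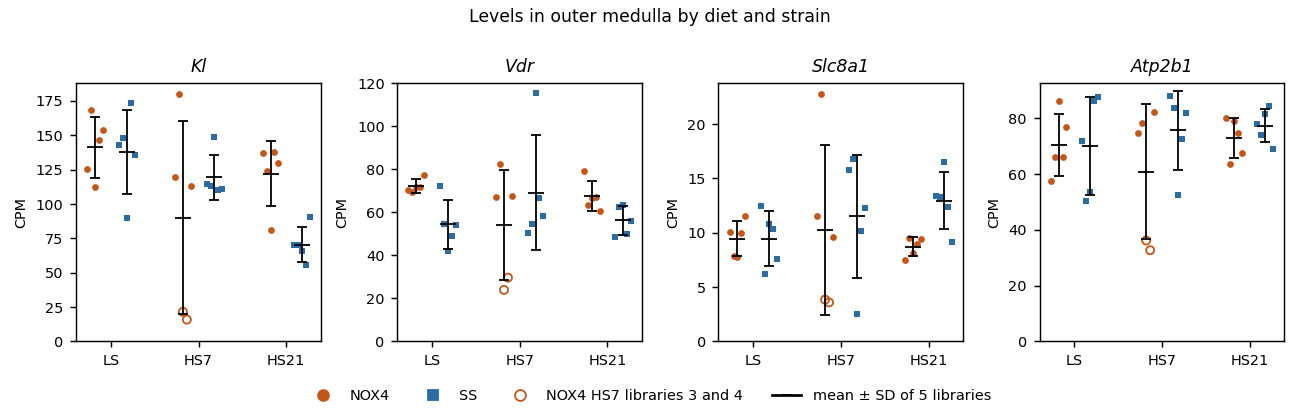
CPM of Kl, Vdr, Slc8a1 and Atp2b1 in the 30 outer medulla libraries by diet, NOX4 circles left of SS squares, with bars for the mean ± SD of 5. NOX4 HS7 libraries 3 and 4 (open circles) lie lowest for Kl, at 21.6 and 15.9 CPM, and SS HS21 has the lowest other Kl values.

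The same 2 libraries were low in Vdr and Atp2b1 and high in S100g. Vdr had 24.0 and 29.7 CPM and Atp2b1 36.2 and 32.7 CPM in them, against 66.9 to 82.3 CPM and 75.0 to 82.3 CPM in the other 3 NOX4 HS7 libraries. S100g had 1.14 and 1.20 CPM in them, against 0.371 to 0.585 CPM in the other 3. Their summed level of thick ascending limb markers was 5745 and 6272 CPM, where SS outer medulla had 8253 to 20648 CPM, and of connecting tubule and principal cell markers 4206 and 4684 CPM, where SS had 695 to 2778 CPM. Their part in the result was not tested.

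The Slc8a1 call depended on the marker-rich libraries averaged over diets and at HS7, and on the fit at HS21. That of Trpv5 depended on the fit. Slc8a1 had 7.53, 9.54, 8.16, 8.97 and 9.46 CPM in NOX4 HS21 outer medulla, against 13.4, 13.3, 16.5, 12.4 and 9.17 CPM in SS HS21. At HS21 it was called in the fit of only the 2 compared groups (-0.56, adjusted p = 0.021), and not in the main fit. Averaged over diets it was -0.25 ± 0.22 (adjusted p = 0.42). Without NOX4 HS7 replicate 2 (22.8 CPM) and SS HS7 replicate 3 (2.52 CPM) it was -0.49 (adjusted p = 0.012), and -0.92 at HS7 (adjusted p = 0.022), the opposite sign to the averaged value in cortex. Trpv5 had 1.45, 0.775, 2.04, 2.54 and 0.512 CPM in SS HS21, against 0.157, 0, 0, 0.284 and 0 CPM in SS LS, with no overlap but with counts of 12 to 69 against 0 to 4. Its fold change, 3.90 ± 1.49 on the log2 scale (adjusted p = 0.094), was called at the same size without the marker-rich libraries, which are in neither group (3.90, adjusted p = 0.027), by DESeq2 (4.03, adjusted p = 0.040) and with the distal convoluted tubule score (4.27, adjusted p = 0.0091). Calb1 reached 104 CPM in NOX4 HS7 replicate 2 and 25.6 CPM in SS HS7 replicate 3, against 0.600 to 12.2 CPM in the other 28 outer medulla libraries. Without SS HS7 replicate 3 alone, Calb1 was called higher in NOX4 averaged over diets (adjusted p = 0.017) and at HS7 (adjusted p = 0.031), and Cyp24a1 was called averaged over diets (adjusted p = 0.028). Without both marker-rich libraries neither was called: Calb1 was 0.59 averaged (adjusted p = 0.19) and -0.075 at HS7 (adjusted p = 0.95), and Cyp24a1 was 1.61 averaged (adjusted p = 0.052).

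Other genes of these pathways moved in both directions in cortex, where 31.7% of all genes were called. Of 9 genes for vitamin D uptake and activation, 4 were higher in NOX4 averaged over diets: Cyp27a1, a vitamin D hydroxylase (0.30, adjusted p = 0.0086), and the retinoid X receptors that pair with Vdr, Rxra (0.30, 0.0012), Rxrb (0.37, 0.0019) and Rxrg (0.32, 0.011). Gc, the vitamin D binding protein (-1.89, adjusted p = 0.00015), and Dhcr7, which draws on the vitamin D precursor (-0.54, adjusted p = 0.0015), were lower. Of 6 tested genes of FGF23 and parathyroid hormone signalling, 1 was higher, the parathyroid hormone receptor Pth1r (0.49, adjusted p = 2.2e-06). Fgf23 and Klb were too low to be tested. The median log2 fold change of the vitamin D list was 0.11 and that of the signalling list 0.034, against 0.0019 over all genes.

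Of 13 tested genes of other calcium and magnesium transport, 4 were higher in NOX4 cortex: the calcium pumps Atp2b2 (0.48, adjusted p = 0.034) and Atp2b4 (0.29, 0.00020), the magnesium channel Trpm6 (0.23, 0.0049) and Cnnm2 (0.33, 0.00010). Cldn16, the paracellular calcium and magnesium pore protein of the thick ascending limb, was lower (-0.37, adjusted p = 0.0041). Of 7 phosphate transport genes, 2 were higher, the brush border cotransporters Slc34a1 (0.33, 0.00039) and Slc34a3 (0.50, 0.00017), both proximal tubule genes. Slc34a2 (-1.75, adjusted p = 2.6e-07) and the phosphate exporter Xpr1 (-0.23, adjusted p = 0.026) were lower. The medians of these lists were 0.0021 and -0.087.

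In outer medulla, where 30.4% of all genes were called, Gc (1.26, adjusted p = 0.014), Dhcr7 (0.73, 0.0013) and Rxrb (0.45, 3.3e-05) were higher in NOX4, 3 of 9. Gc and Dhcr7 thus had the sign opposite to cortex; the markers of proximal tubule segment 3 did too, with 5 of 6 higher and 1 lower in outer medulla. Of 6 signalling genes, Pth1r (0.82, adjusted p = 0.0094) and Fgfr4 (0.36, 0.0060) were higher and Fgfr2 (-0.36, 0.017) was lower. Of 14 calcium and magnesium genes, Cldn2 (0.53, 0.047) was higher, and the calcium channel Trpv6 (-1.55, 0.00031), Atp2b4 (-0.48, 0.0020) and Trpm7 (-0.29, 0.018) were lower. Of 7 phosphate genes, Slc34a1 (1.34, 0.021) and the scaffold Nherf1 (0.98, 0.0019) were higher and Slc34a2 (-0.49, 0.014) was lower. The medians of the 4 lists, in the same order, were 0.45, 0.093, -0.0012 and 0.0084, against -0.016 over all genes.

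The authors' deposited table, whose test is not stated, called more members, and its shares of all genes listed are given beside them. At LS in cortex the authors' deposited table called 5 of the 9 higher in NOX4 (Kl, Vdr, Calb1, Trpv5 and Slc8a1) and 16.6% of all genes, with log2 fold changes of 0.21 for Vdr to 0.95 for Calb1. At HS21 in cortex the authors' deposited table called Kl, Vdr, Calb1 and Slc8a1 and 9.38% of all genes. At HS7 in cortex 1 member was called in the authors' deposited table, Cyp27b1 (1.31, adjusted p = 0.028), and 7.10% of all genes. In outer medulla at HS21 the authors' deposited table called Kl (0.82), Vdr (0.29) and Calb1 (0.97) higher and Slc8a1 (-0.54) and Trpv5 (-2.10) lower, with 25.6% of all genes. The main edgeR fit called 0 members there, and the edgeR fit of only the compared groups called Kl and Slc8a1. At LS in outer medulla the authors' deposited table called Vdr (0.41, adjusted p = 0.027) and 17.1% of all genes.

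For salt in SS, the authors' deposited table called Kl (-0.97) and Trpv5 (4.00) at HS21 against LS in outer medulla, with 13.0% of all genes, and Trpv5 in cortex, with 15.1%. Between HS7 and HS21 the authors' deposited table called Kl in SS outer medulla (0.79, higher at HS7; 1.61% of all genes) and Cyp27b1 in NOX4 cortex (1.77, adjusted p = 0.024, higher at HS7; 0.0394% of all genes). The log2 fold changes in the authors' deposited table lay close to those of edgeR where both were computed, and the calls differed through the p-values.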

How the data were processed

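RNA from 30 outer medulla and 30 cortex pieces was sequenced after poly(A) enrichment, per the labels' protocols. Per the submitters' processing notes, reads were aligned with HISAT2 2.0.5, assembled with StringTie 1.3.3b and counted with featureCounts 1.5.0-p3; genome build and strandedness are not given in the sources used here. Per the file headers, the deposited table lists raw counts and FPKM for every gene in every library. The authors' 18 comparisons are deposited beside them as log2 fold changes with p-values, raw and adjusted. Gene positions of the deposited table were not mixed with GRCr8.

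The deposited counts were tested in R 4.3.3 with edgeR 4.0.16: filterByExpr by group, TMM scaling, 1 coefficient per group, quasi-likelihood F test over the 30 libraries of a tissue (15179 genes in cortex, 15799 in outer medulla) or all 60 (16326 genes). The standard error is the log2 fold change over the square root of F. The test was checked on simulated data. Alternatives were DESeq2 1.42.0 and its size factors, no filter, 1 CPM in 5 libraries, a replicate block, only the compared groups, 2 composition scores as covariates, no low-complexity libraries (judged after thinning to 10 M counts) and each library left out. 2 more, without NOX4 HS7 replicates 3 and 4 and without the marker-rich outer medulla libraries (score over 6), were chosen after seeing the data.

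The 9 members and the lists were chosen with earlier results of these data known. The text names the members, the 3 genes closest to each by Pearson correlation of log2 CPM (prior count 2) (1 of them is not reported here), and all called genes of the 4 pathway lists, up to 6 per list. Reads carry no molecular identifiers, and a count of 0 is known only within counting error. Standard errors and SDs include the spread between libraries as well as counting error.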

Additional observations from a re-analysis of the deposited data

Results flagged for a closer look

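Of 108 sets of 5 libraries (1 gene in 1 group), 18 held a library far from the other 4 by Dixon's test, which chance gives in about 1 of 20 sets. Values are CPM, with the range of the other 4 libraries after each.

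In outer medulla, NOX4 HS7 replicate 2 was high for Calb1 (104, others 0.949 to 4.06) and Trpv5 (5.33, others 0.0412 to 0.184). NOX4 HS21 replicate 3 was low for Kl (81.4, others 124 to 138) and high for Trpv5 (1.35, others 0.0388 to 0.173). NOX4 LS replicate 5 was high for Vdr (77.5, others 69.5 to 71.7) and NOX4 LS replicate 4 for Trpv5 (1.13, others 0 to 0.228). SS HS7 replicate 3 was high for Kl (149, others 110.4 to 115), Vdr (116, others 50.2 to 66.7), Cyp24a1 (39.2, others 0 to 3.49) and Calb1 (25.6, others 1.11 to 3.39). SS LS replicate 4 was high for Cyp24a1 (1.71, others 0 to 0.262) and Cyp27b1 (0.426, others 0 to 0.0524), and SS HS21 replicate 5 for Calb1 (2.77, others 0.773 to 1.3).

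In cortex, NOX4 HS21 replicate 3 was high for Trpv5 (52.1, others 26.9 to 33.8). SS HS7 replicate 1, a low-complexity library, was low for Cyp24a1 (35.0, others 109 to 129.5) and Trpv5 (14.9, others 29.1 to 32.7). SS HS7 replicate 4, also of low complexity, was high for Slc8a1 (114, others 48.4 to 62.3), and SS HS21 replicate 3 was low for Atp2b1 (67.4, others 74.9 to 76.9).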

How the results depend on the processing

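Of 7195 member values under alternatives, 7092 kept their side of the threshold, 47 lost a call, 53 gained one and 3 reversed. The 3 were Vdr (-0.078 with the distal convoluted tubule score, -0.054 with the segment 3 score) and Trpv5 (-0.020 with the distal score), all in cortex averaged over diets. Of the 7092, 223 changed sign without a call in either fit. The cause was not tested. Shares of all genes called under these alternatives are not reported here, so a change in member counts may follow a change over all genes. In cortex, the averaged strain comparison called 5 members, but 1 with either score as covariate and 5 to 7 with a library left out. The 3 diets gave 7 calls together, but 3 without low-complexity libraries, 2 with either score, 8 with compared groups only and 5 to 7 with a library left out. SS salt in cortex gave 0, but 2 with the segment 3 score. In outer medulla, the averaged strain comparison gave 0, but 1 without NOX4 HS7 replicates 3 and 4, 1 without the marker-rich libraries and 0 to 2 with a library left out. The diets gave 0, but 3 with compared groups only, 1 without either set of libraries and 0 to 1 with a library left out. SS salt gave 0, but 2 by DESeq2, 1 each with the distal score, with compared groups only and without either set, and 0 to 1 with a library left out. NOX4 salt and the interactions gave 0, and the region comparison 9, under every alternative run. Counts near 0 limit Cyp24a1, Cyp27b1, Trpv5 and S100g in outer medulla.

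With the replicate number as a block, cortex gave 5 calls averaged and 7 over the diets, and no count changed in either region. Correlations gave no clear sign of pairing by number: 9 of 75 same-numbered pairs in cortex, 19 of 75 in outer medulla and 4 of 30 across regions correlated above 0.1, and 8 of 30 libraries matched their own number best. Weak correlations between different tissues cannot show that same-numbered pieces came from different rats, so whether the regions are paired is not known.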
